A study of Mus musculus with 12 samples.

Results

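The genes described here encode splicing factors and heterogeneous nuclear ribonucleoproteins (hnRNPs), the proteins that recognise, assemble on and package pre-mRNA. They were taken by name: every gene whose only symbol in the annotation of the Affymetrix MG_U74Av2 array, a microarray of mouse genes, begins with Srsf, Sfrs, Snrp, Hnrnp, Sf3, U2af or Prpf. The rule gave 52 genes, of 8252 with a single symbol on the array, and all 52 were among the 6414 genes bright enough to test. They comprise 9 SR proteins, 8 proteins of the small nuclear ribonucleoproteins (snRNPs), 16 hnRNPs, and 19 genes in the group of U2-associated (Sf3, U2af) and Prp factors. A further 7 probe sets, of Snrpa, Snrpd1, Snrpd2, Hnrnpa1 and Hnrnpa3, carry the symbols of several genes and were left out, although Hnrnpa1 kept another probe set of its own.

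RNA came from E14tg2a mouse embryonic stem (ES) cells, a cultured line, all of them of 1 clone, C2, that carries targeted recognition sites for the endonuclease I-SceI. The control group, 3 arrays, was held in phosphate-buffered saline (PBS) without peroxide. Hydrogen peroxide was given in PBS at 100 µM for 15 min to the low-dose group, 4 arrays, and at 5 mM for 30 min to the high-dose group, 5 arrays, each followed by 1 h in maintenance medium before RNA extraction, so concentration and exposure time differ together. For how long the controls were in PBS, and whether they had the same recovery, the labels do not settle. That the arrays of a group came from separate cultures is not stated, so a p-value here reflects the spread among arrays alone, which may be technical, and the number of arrays limits the precision.

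Splicing removes introns in a series of steps. The U1 snRNP marks the 5′ splice site, the U2AF proteins bind the pyrimidine tract and the AG of the 3′ splice site, and the U2 snRNP settles on the branch point with the help of the SF3A and SF3B complexes, after which the Prp proteins of the tri-snRNP join. SR proteins, which carry a domain rich in arginine and serine, bind exons and favour their inclusion, whereas many hnRNPs bind introns or silencers and oppose them. Transcripts of several SR proteins and hnRNPs can carry an alternative exon with a premature stop codon through which the protein limits its own amount, so different probe sets of such a gene need not read the same mixture of transcripts.

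Each value is a MAS5 signal, an intensity on a linear scale, and each change is a difference of log2(signal + 10.1) between group means with its standard error (SE), from a limma model fitted to all 8695 tested probe sets, with Benjamini-Hochberg adjustment over them and 0.05 as the threshold. Each gene is represented by its brightest tested probe set (by mean log2 value). Signals of different probe sets are not read as levels of one gene against another, since they depend on the probes. The arrays correlated at 0.958 to 0.978 within groups and at 0.921 to 0.957 between them. The signal ratio of the 3′ to the 5′ actin probe set, a measure of RNA quality, was 1.99 in control replicate 1. It was 0.87 and 0.92 in control replicates 2 and 3, 1.11 to 1.49 at the low dose and 1.05 to 1.49 at the high dose. The part of RNA quality in the results was not tested. The bright end of the scale moved with the groups: the highest signal on an array was 7206 to 8904 in controls, 14976 to 24225 at the low dose and 19733 to 34685 at the high dose, where replicates 1 and 2 stood above the other 3 arrays. Pluripotency genes, 10 measured, had a summed signal of 26553 to 29677 in controls, 33036 to 38768 at the low dose and 30121 to 35787 at the high dose. Among them Pou5f1 averaged 4319, 4629 and 5903 in these groups, while Esrrb was dim, at 99.1, 146 and 179. Dppa5a averaged 6071, 8896 and 9655, and Nanog 3461, 5672 and 4959. Sox2 averaged 3648, 5633 and 3107, Fgf4 2592, 3018 and 1724, and Klf4 1201, 3380 and 1029. Utf1 averaged 3181, 1726 and 2599, Tdgf1 338, 231 and 226, and Zfp42 3004, 2910 and 2900. The genes of this list thus did not all move the same way. The summed signal of 15 markers of primitive and visceral endoderm, another cell type of such cultures, was 6801 to 11118 in controls, 10215 to 11162 at the low dose and 1250 to 1420 at the high dose. No marker of that list was at exactly 0. In controls, low-dose and high-dose arrays, Gata6 averaged 182, 635 and 23.6 signal units and Foxa2 36.4, 234 and 11.3. Gata4 averaged 209, 282 and 194, and Afp 26.7, 17.6 and 27.7. In bulk RNA, fewer cells of a type and less RNA per cell cannot be told apart. The part of endoderm cells and of the bright end in the results below was not tested; 24 of the 52 genes lie in the top decile of signal, the 642 brightest of the genes tested.

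After the high dose, 7 of the 52 genes were higher than in controls, none was lower, and 45 did not pass the test. The 7 were the SR protein Srsf6, the Sm protein Snrpb, the U2-associated Sf3b1 and U2af2, and the hnRNPs Hnrnpd, Hnrnpm and Hnrnpr. That is 13.5% of the genes, beside 12.2% of all genes tested, of which 5.36% were higher and 6.84% lower. At an unadjusted p under 0.05 the same limma fit had 17 of the 52 higher and 2 lower, beside 807 higher and 921 lower of all 6414 genes. Among all genes of the top decile, 18.2% were higher and 2.65% lower; 6 of the 24 splicing genes in it were higher, and 1 of the other 28. Without control replicate 2 the count higher was 3, and without control replicate 3 it was 4.

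After the low dose, 9 genes were higher than in controls and 4 were lower. Higher were the SR proteins Srsf3 and Srsf5, Snrpb, Sf3b1, and the hnRNPs Hnrnpa2b1, Hnrnpdl, Hnrnph1, Hnrnpk and Hnrnpr; lower were Hnrnpm, Prpf31, Sf3a3 and Sf3b5. The 13 genes are 25.0% of the 52, beside 24.6% of all genes tested (11.9% higher, 12.7% lower). In both comparisons with the controls, then, the share of splicing genes past the threshold was close to that of all genes. Of the 24 in the top decile 7 were higher and 1 lower, where 16.0% of all genes were higher and 18.4% lower. Without control replicate 2 the 9 became 5, and without low-dose replicate 2 the 4 became 2.

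Between the doses, 10 genes were higher after the high dose than after the low dose and 8 were lower, 34.6% of the 52 beside 29.0% of all genes (13.8% higher, 15.2% lower). The higher ones were Srsf6, Srsf9, Prpf31, Prpf38b, Sf3a3, Sf3b5, Hnrnpab, Hnrnpd, Hnrnpll and Hnrnpm, and the lower ones Srsf3, Srsf5, Hnrnpc, Hnrnpdl, Hnrnph1, Hnrnph3, Hnrnpk and Hnrnpu. By role, 4 of 16 hnRNPs were higher and 6 lower, 2 of 9 SR proteins were higher and 2 lower, 4 of 19 U2-associated and Prp factors were higher and none lower, and none of 8 snRNP proteins passed, although 2 were higher at an unadjusted p under 0.05 in the limma fit. No U2-associated or Prp factor was lower at an unadjusted p under 0.05 either. Of all 6414 genes, 1218 were higher and 1351 lower between the doses at that unadjusted p. In the top decile of signal, 30.2% of all genes were higher and 9.50% lower, and of the 24 splicing genes 4 were higher and 4 lower.

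The median change over the 52 genes against controls was 0.16 on the log2 scale for the high dose and 0.13 for the low, and 0.07 between the doses. The medians over all genes were -0.01, 0.04 and -0.04. In the top decile of signal the medians were 0.25, 0.14 and 0.18 over 24 splicing genes, beside 0.11, -0.03 and 0.18 over all genes. In the other deciles they were 0.07, 0.13 and 0.01 over 28 splicing genes, beside -0.02, 0.05 and -0.07 over all genes. Scaling every array to a common median moved the median of all genes at the low dose from 0.04 to -0.13, and that of the 52 genes from 0.13 to -0.06, so the sign of the low-dose median depends on the scaling. Under that scaling 3 of the 52 were higher and 9 lower at the low dose, beside 375 higher and 1242 lower of all 6411 genes tested under it. Against the shift of all genes, the low-dose medians of the 52 lay above in both scalings.

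Altogether 23 genes passed in at least 1 comparison and 29 in none. A group of 5 genes, Srsf3, Srsf5, Hnrnph1, Hnrnpk and Hnrnpdl, was higher at the low dose than in controls and lower at the high dose than at the low dose. A group of 3, Prpf31, Sf3a3 and Sf3b5, did the reverse and did not pass at the high dose against controls. Hnrnpm did the reverse too and was also higher at the high dose than in controls. Another 3, Snrpb, Sf3b1 and Hnrnpr, were higher than controls at both doses. The comparisons share arrays (the controls in one pair, a dose group in each other pair), so these sequences of calls are not independent of each other. How many of all genes passed in at least 1 comparison, or had each sequence, is not given here. These counts are therefore not read as particular to splicing genes.

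**Figure D1:**
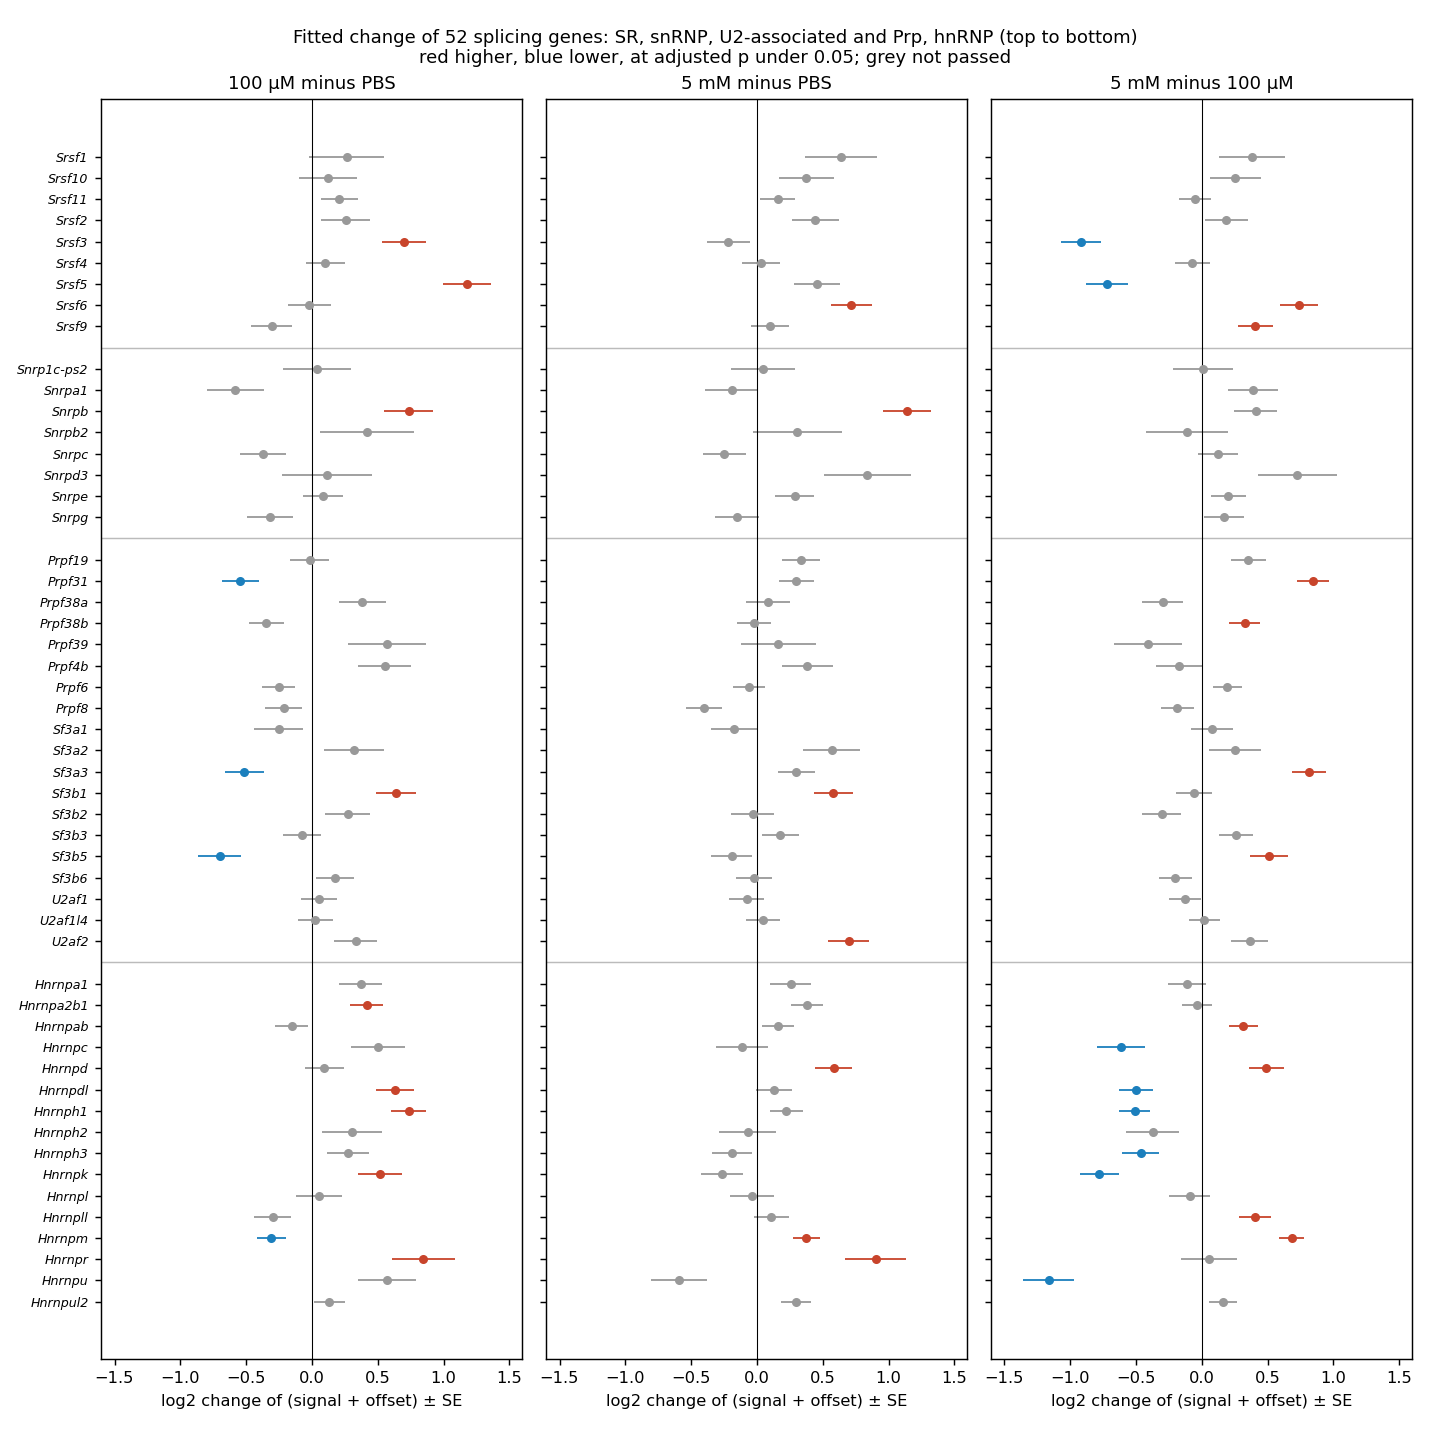
Fitted log2 change (x axis, with SE as the bar) of each of the 52 genes (y axis), by role from SR proteins at the top to hnRNPs at the bottom, in 3 comparisons; red is higher, blue lower and grey not past the threshold. In the middle panel, 5 mM against PBS, 7 points are red and none is blue, and in the right panel, 5 mM against 100 µM, 10 are red and 8 blue.

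Of the SR proteins, Srsf3, which acts in splicing and in mRNA export, had signals of 1628, 980.2 and 941 in the controls, 2070.4, 1919, 2007 and 1524 at the low dose and 1077, 933, 988, 1031 and 896 at the high dose. All high-dose arrays lay below all low-dose arrays, while control replicate 1 lay above the lowest low-dose array. The gene was 1.62-fold higher at the low dose than in controls (log2 change 0.70 ± 0.17 SE, adjusted p = 0.00811), and fell by 0.92 ± 0.15 from the low to the high dose (adjusted p = 0.000279). The rise was lost when every array was scaled to a common median (adjusted p = 0.085).

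Srsf5, an SR protein that binds exonic enhancers, had the largest change of the 52 genes when each is read by its brightest probe set. It read 1609, 1222 and 1455 in controls, 2938, 3650.3, 3822 and 2654 at the low dose and 2339.6, 1683, 2454, 2000.1 and 1466 at the high dose. Every low-dose array was above every other array. The rise at the low dose was 2.27-fold (1.18 ± 0.18, adjusted p = 0.000357), and the high dose was 0.72 ± 0.16 below the low dose (log2 change -0.72, adjusted p = 0.00306). At the high dose against controls its change of 0.46 did not pass.

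Srsf6, another SR protein, went the other way. Its signals were 1332, 1134 and 1576 in controls, 1362, 1149, 1134 and 1687 at the low dose and 2462, 1783, 2184, 2536 and 2125 at the high dose. The 5 high-dose arrays were above all others, and the control and low-dose arrays overlapped. It was 1.64-fold higher at the high dose than in controls (0.72 ± 0.16, adjusted p = 0.00784) and 1.67-fold higher than at the low dose (0.74 ± 0.14, adjusted p = 0.00121). Without control replicate 2 the call against controls was lost (adjusted p = 0.0594).

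Srsf2, a component of nuclear speckles, read 6809, 4913 and 5706 in controls, 6527, 8581, 7189.8 and 5593 at the low dose and 9619, 9958, 6952, 6460.1 and 6844 at the high dose. The groups overlapped, high-dose replicates 1 and 2 were the highest, and no comparison passed (0.44 and 0.26 against controls, 0.18 between the doses). Quantile normalization of the arrays reversed it, to -0.64 and -0.59 against controls, both past the threshold, so its direction is not settled. Srsf9 was 0.41 ± 0.14 higher at the high than at the low dose (adjusted p = 0.0341), a call that 7 of 23 other settings lost, among them leaving out low-dose replicate 1, 2 or 3 or high-dose replicate 3 or 4 (adjusted p 0.0708 to 0.108). Srsf1, Srsf4, Srsf10 and Srsf11 passed in no comparison, with changes between -0.07 and 0.64.

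For genes that moved together the stretch in front of the gene can be read. RefSeq promoter windows of assembly GRCm38.p6 matched 46 of the 52 genes by symbol. The last 150 bases before the annotated start are printed for 3 genes that were higher at the low dose and lower at the high than at the low dose (Srsf3, Srsf5, Hnrnpk) and 3 that were higher at the high than at the low dose (Srsf6, Sf3a3, Prpf31). They lie at chr17:29032510-29032659, chr12:80945349-80945498, chr2:162931358-162931507, chr4:124714711-124714860 and chr7:3629835-3629984 on the plus strand, and at chr13:58402118-58402267 on the minus strand. Each reads 5′ to 3′ along its gene, and capitals mark matches, on either strand, to the TATA box (TATAAA), the CCAAT box (CCAAT), the GC box (GGGCGG), the core of sites for ETS factors (CCGGAAG), the cyclic AMP response element (TGACGTCA) or the E-box (CACGTG).
Srsf3: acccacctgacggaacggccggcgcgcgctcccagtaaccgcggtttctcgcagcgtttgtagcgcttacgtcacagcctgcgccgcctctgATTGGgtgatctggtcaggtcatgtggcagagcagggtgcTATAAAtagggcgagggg
Srsf5: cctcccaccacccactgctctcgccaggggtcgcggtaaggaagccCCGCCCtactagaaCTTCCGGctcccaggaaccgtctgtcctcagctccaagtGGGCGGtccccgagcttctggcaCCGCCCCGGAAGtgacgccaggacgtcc
Hnrnpk: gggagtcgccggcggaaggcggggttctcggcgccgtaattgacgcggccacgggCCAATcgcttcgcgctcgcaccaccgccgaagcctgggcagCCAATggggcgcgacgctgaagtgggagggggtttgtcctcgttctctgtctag
Srsf6: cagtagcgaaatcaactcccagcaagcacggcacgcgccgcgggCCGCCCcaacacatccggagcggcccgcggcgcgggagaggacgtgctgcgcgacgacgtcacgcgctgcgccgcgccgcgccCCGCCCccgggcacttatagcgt
Sf3a3: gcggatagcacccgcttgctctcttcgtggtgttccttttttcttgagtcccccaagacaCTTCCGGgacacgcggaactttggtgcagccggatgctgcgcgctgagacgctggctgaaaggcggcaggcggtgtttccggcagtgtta
Prpf31: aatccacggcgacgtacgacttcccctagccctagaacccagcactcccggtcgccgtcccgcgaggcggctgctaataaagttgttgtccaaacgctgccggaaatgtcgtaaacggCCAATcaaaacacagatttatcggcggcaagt

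Srsf3 alone of these 6 has a TATA box match, from -18 counted from the start, besides a CCAAT box on the opposite strand. Srsf5 has the GC box at 3 places and the ETS core at 2, where the pair nearest the start shares a base. Hnrnpk has the CCAAT box at 2 places and Prpf31 at 1, Srsf6 has the GC box at 2 and Sf3a3 the ETS core at 1. Neither set of 3 has a match found in all its members and in none of the other set. Over 250 bases before the start, on both strands, the ETS core was found in 15 of the 46 genes (32.6%, beside 7.83% of 27025 genes), the GC box in 31 (67.4%, beside 35.4%) and the CCAAT box in 22 (47.8%, beside 37.5%). The TATA box was found in 4 (8.70%, beside 14.3%), the E-box in 2 (4.35%, beside 6.86%) and the cyclic AMP response element in 1 (2.17%, beside 1.77%). The 27025 genes are all those with a promoter window, not only genes tested or bright on these arrays. The shares are therefore not read as particular to splicing genes. A match is a description of the letters, not a bound site.

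Of the snRNP proteins, Snrpb, which encodes the Sm proteins B and B′ of the ring on each spliceosomal snRNA, was the only one past the threshold. It read 3829, 2917 and 3916 in controls, 5365, 7675, 5794 and 4973 at the low dose and 9164, 10358, 6881, 6670.1 and 6589 at the high dose. Both treated groups lay wholly above the controls, and high-dose replicates 1 and 2 were the highest. The high dose was 2.21-fold above controls (1.14 ± 0.18, adjusted p = 0.000677), a call kept in all 23 other settings, and the low dose 1.66-fold (0.73 ± 0.19, adjusted p = 0.0112). The low-dose call was lost when arrays were scaled to a common median (adjusted p = 0.088) and without control replicate 2 (adjusted p = 0.0623). Its probe set is of a type (r) whose probes follow less strict design rules, so it may read related transcripts too.

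The other 7 snRNP genes had changes that did not pass. Snrpd3, an Sm protein, was at 0.84 at the high dose against controls and 0.73 between the doses, and Snrpa1, a protein of the U2 snRNP, at -0.58 at the low dose. Snrpb2, Snrpc, Snrpe and Snrpg, and a pseudogene entry, Snrp1c-ps2, lay between -0.37 and 0.42 in the 3 comparisons. With quantile normalization Snrpg was at -0.85 at the high dose and -0.82 at the low dose against controls, both past the threshold (adjusted p 0.0019 and 0.00172).

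Of the 19 U2-associated and Prp factors, 3 were lower and 1 was higher at the low dose than in controls. Of all genes tested, 12.7% were lower and 11.9% higher. Prpf31, needed to assemble the U4/U6.U5 tri-snRNP, read 602, 574 and 509 in controls, 403, 389, 382 and 352 at the low dose and 605, 832, 753, 569.8 and 734 at the high dose. The 4 low-dose arrays lay below all others. It fell by 0.54 ± 0.14 at the low dose against controls (adjusted p = 0.011) and was 1.79-fold higher at the high than at the low dose (0.84 ± 0.12, adjusted p = 0.000102), and both calls were kept in all 23 other settings.

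Sf3a3, a subunit of the SF3A complex of the U2 snRNP, read 1491, 1087 and 1041 in controls, 938, 687, 817 and 907 at the low dose and 1392, 1408, 1658, 1356 and 1542 at the high dose. The low-dose arrays again lay below all others. It fell by 0.51 ± 0.15 at the low dose (adjusted p = 0.0188) and was 1.76-fold higher at the high than at the low dose (0.81 ± 0.13, adjusted p = 0.000217). The low-dose call was lost without control replicate 1 (adjusted p = 0.0927) or low-dose replicate 2 (adjusted p = 0.0574).

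Sf3b5, a small subunit of SF3B, read 1201, 844 and 1373 in controls, 609.9, 842, 707 and 601 at the low dose and 1102, 952, 1016, 947 and 883 at the high dose. Low-dose replicate 2 and control replicate 2 were almost level, and the other low-dose arrays were lower. The low dose was 1.62-fold below controls (-0.70 ± 0.16, adjusted p = 0.006) and the high dose 1.42-fold above the low dose (0.51 ± 0.14, adjusted p = 0.014), the latter lost without both high-dose replicates 1 and 2 (adjusted p = 0.0645).

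U2af2, the large U2AF subunit, binds the pyrimidine tract. Its signals were 2729, 2989 and 3314 in controls, 3888, 3966, 3168 and 4183 at the low dose and 4880.1, 6792, 4461, 4408 and 4211 at the high dose. High-dose replicate 2 stood apart, and every high-dose array was above every other array. The gene was 1.62-fold higher at the high dose than in controls (0.70 ± 0.15, adjusted p = 0.00841), which quantile normalization lost (adjusted p = 0.0776).

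Sf3b1, the SF3B subunit that holds the branch point, was higher than controls at both doses, by 0.64 ± 0.15 at the low dose (adjusted p = 0.00691) and 0.58 ± 0.15 at the high dose (adjusted p = 0.0176). Its controls averaged 1203 ± 44.5 (SD, n = 3), the low dose 1885 ± 101 (SD, n = 4) and the high dose 1835 ± 348 (SD, n = 5). The high-dose call was lost without control replicate 2 or 3 (adjusted p 0.0551 and 0.0534) and without both high-dose replicates 1 and 2 (adjusted p = 0.0704). With replicate number as a block that call was lost too (adjusted p = 0.0757). Prpf38b was 0.32 ± 0.12 higher at the high than at the low dose (adjusted p = 0.0484), a call that 13 of 23 other settings lost, 10 of them leaving out 1 array (control replicate 2 or 3, any low-dose array, or high-dose replicate 1, 3, 4 or 5; adjusted p 0.052 to 0.107). Prpf8, the core protein of the spliceosome, was at -0.40 at the high dose and -0.22 at the low dose, and neither passed. With quantile normalization the high-dose value was -0.52 and passed (adjusted p = 0.0165).

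**Figure D2:**
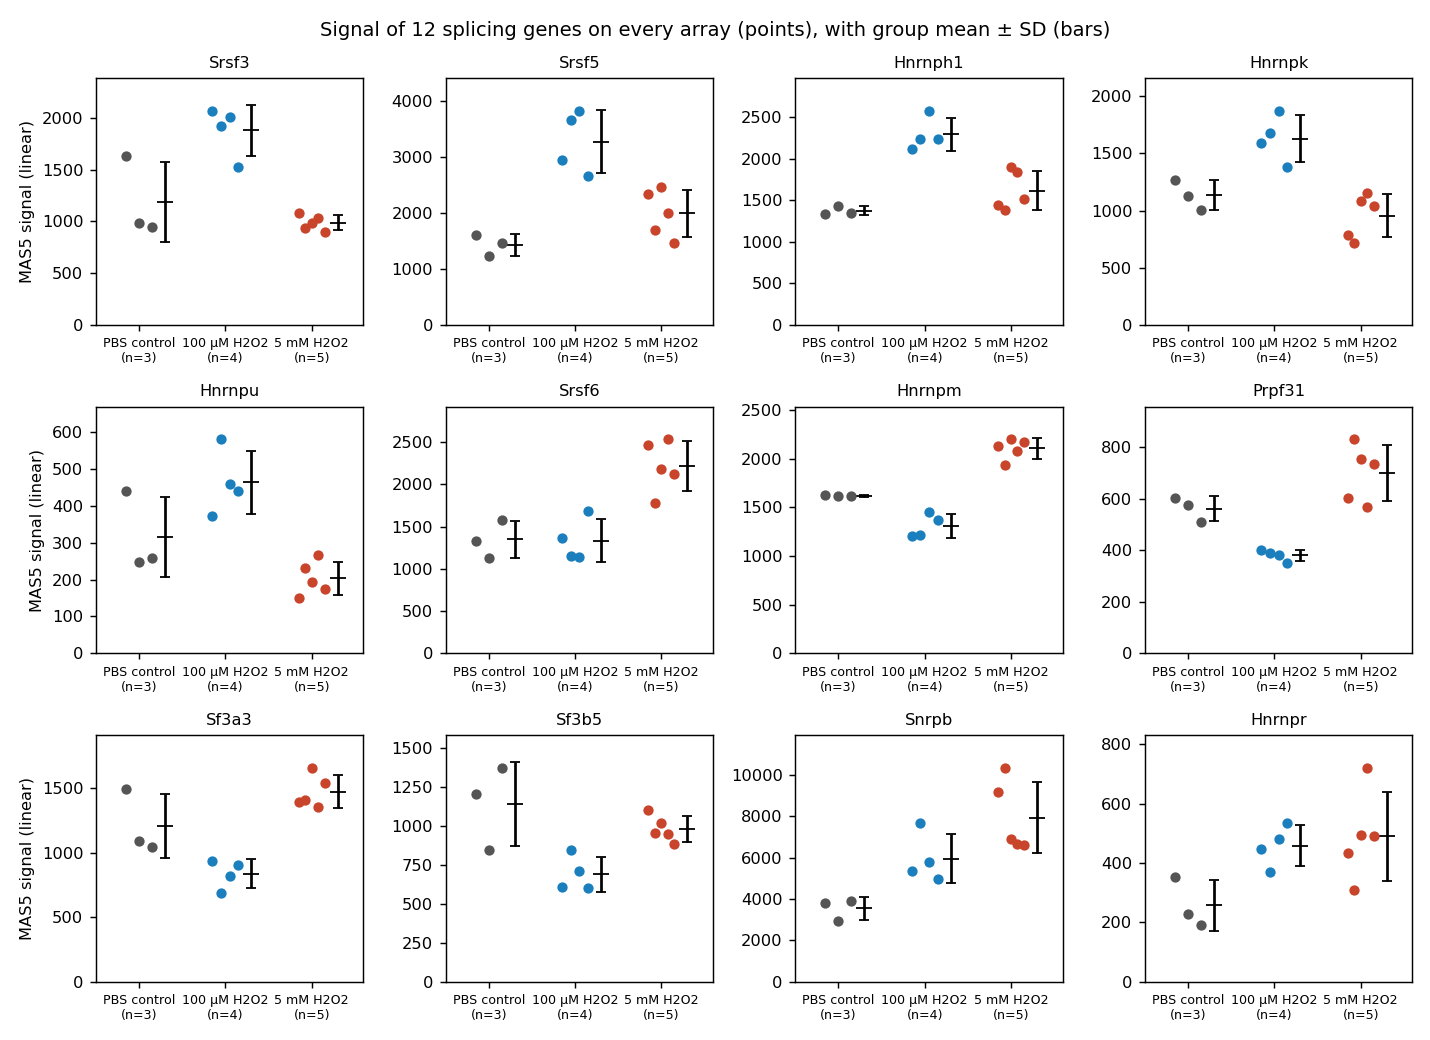
MAS5 signal (y axis, linear, from 0) of 12 splicing genes on each array (points), with the mean and SD of the 3 control, 4 low-dose and 5 high-dose arrays (bars). Srsf5 and Hnrnph1 are highest in all low-dose arrays, Prpf31 and Sf3a3 are lowest in them, and Srsf6 and Hnrnpm are highest in all high-dose arrays.

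Of the hnRNPs, Hnrnph1, which binds runs of G, read 1333, 1433 and 1353 in controls, 2121, 2245, 2582 and 2238 at the low dose and 1447, 1387, 1896, 1841 and 1512 at the high dose. The low-dose arrays were above all others, and control and high-dose arrays overlapped. It was 1.66-fold higher at the low dose than in controls (0.73 ± 0.13, adjusted p = 0.00105) and fell by 0.51 ± 0.12 from the low to the high dose (adjusted p = 0.00343). Scaling to a common median lost the second call (adjusted p = 0.0545).

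Hnrnpk, which binds runs of C, read 1272, 1126 and 1008 in controls, 1592, 1675, 1875 and 1379 at the low dose and 789, 719, 1086, 1153 and 1036 at the high dose. The low-dose arrays were again the highest. It was 1.43-fold higher at the low dose (0.52 ± 0.17, adjusted p = 0.0336) and 1.72-fold lower at the high than at the low dose (-0.78 ± 0.15, adjusted p = 0.000928). The low-dose rise was lost in 8 of 23 other settings, among them without control replicate 2 or 3 or low-dose replicate 1, 2 or 3 (adjusted p 0.057 to 0.129), while the fall between the doses was kept in all 23.

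Hnrnpu, also known as scaffold attachment factor A, fell most between the doses when each gene is read by its brightest probe set. Its signals were 440.2, 248 and 258 in controls, 373, 581, 459 and 439.6 at the low dose and 149.6, 231, 193, 265 and 175 at the high dose. All high-dose arrays were below all low-dose arrays, and control replicate 1 was far above the other controls. The high dose was 2.24-fold below the low dose (-1.16 ± 0.19, adjusted p = 0.000344). Against controls its changes of 0.57 (low dose) and -0.59 (high dose) did not pass.

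Hnrnpr, an hnRNP that binds RNA through several recognition motifs, read 353, 228 and 189.9 in controls, 448, 369, 483 and 536 at the low dose and 435, 308, 496, 722 and 493 at the high dose. All low-dose arrays were above the controls, while control replicate 1 was above high-dose replicate 2. It was 1.87-fold higher at the high dose (0.90 ± 0.23, adjusted p = 0.0196) and 1.80-fold higher at the low dose (0.85 ± 0.24, adjusted p = 0.0186). Both calls were lost without control replicate 2 or 3 (adjusted p 0.0668 to 0.106), and the low-dose call also at a common median (adjusted p = 0.0811).

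Hnrnpm, which binds GU-rich sequence, had small spreads, at 1619 ± 8.78 (SD, n = 3) in controls, 1309.8 ± 121 (SD, n = 4) at the low dose and 2105 ± 104 (SD, n = 5) at the high dose. It passed in all 3 comparisons, 0.37 ± 0.10 higher at the high dose (adjusted p = 0.0294), 0.31 ± 0.11 lower at the low dose (log2 change -0.31, adjusted p = 0.0499), and 0.68 ± 0.10 higher at the high than at the low dose (adjusted p = 6.9e-05). The call between the doses was kept in all 23 other settings. The low-dose call was lost in 17 of them, 10 of which leave out 1 array (any control, low-dose replicate 1, 2 or 4, or high-dose replicate 1, 3, 4 or 5; adjusted p 0.057 to 0.118). The high-dose call was lost in 10, of which 6 leave out 1 array (any control, or high-dose replicate 1, 3 or 5; adjusted p 0.0521 to 0.0934).

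Hnrnpa2b1, an hnRNP of the A and B family, read 3101, 3214 and 3385 in controls, 4327, 4606, 4679 and 3720.2 at the low dose and 4902, 3634, 4212, 4222 and 4163 at the high dose. Both treated groups were wholly above the controls and overlapped each other. It was 1.33-fold higher at the low dose (0.42 ± 0.13, adjusted p = 0.0253), lost without control replicate 1 or 2 or low-dose replicate 2 or 3 (adjusted p 0.0623 to 0.0708) and at a common median (adjusted p = 0.35).

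Hnrnpdl and Hnrnpd, both of the family that binds AU-rich elements, differed. Hnrnpdl was 0.63 ± 0.14 higher at the low dose (adjusted p = 0.00535) and fell by 0.50 ± 0.13 to the high dose (adjusted p = 0.00725), and both calls were lost at a common median (adjusted p 0.096 and 0.0908). Hnrnpd was 0.58 ± 0.14 higher at the high dose than in controls (adjusted p = 0.0153). That call was lost without control replicate 1 (adjusted p = 0.0566) and with replicate number as a block (adjusted p = 0.0521). Hnrnpd was also 0.49 ± 0.13 higher at the high than at the low dose (adjusted p = 0.0103), kept in all 23 other settings.

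The remaining calls were smaller or less stable. Hnrnpc, which binds runs of U, fell by 0.62 ± 0.18 from the low to the high dose (adjusted p = 0.0181), lost without low-dose replicate 1 or 3 (adjusted p 0.0616 and 0.0564) and at a common median (adjusted p = 0.0571). Without both high-dose replicates 1 and 2 its change was -0.35 (adjusted p = 0.139). Hnrnph3 fell by 0.46 ± 0.14 (adjusted p = 0.0213), lost without low-dose replicate 3 or 4 or high-dose replicate 5 (adjusted p 0.0528 to 0.0756). That call was also lost at a common median (adjusted p = 0.138) and with replicate number as a block (adjusted p = 0.0889). Hnrnpll, known for the splicing of Ptprc (CD45) in T cells, was 0.41 ± 0.12 higher at the high than at the low dose (adjusted p = 0.0213). That call was lost without low-dose replicate 2 or 4 or high-dose replicate 1 (adjusted p 0.0535 to 0.0591). With replicate number as a block the call was lost too (adjusted p = 0.0559). Hnrnpab was 0.31 ± 0.11 higher (adjusted p = 0.0435), lost in 11 of 23 other settings, 8 of them leaving out 1 array (control replicate 2 or 3, low-dose replicate 2, 3 or 4, or high-dose replicate 1, 3 or 4; adjusted p 0.0508 to 0.117). Hnrnpa1, Hnrnph2, Hnrnpl and Hnrnpul2 passed in no comparison, with changes from -0.37 to 0.37.

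**Figure D3:**
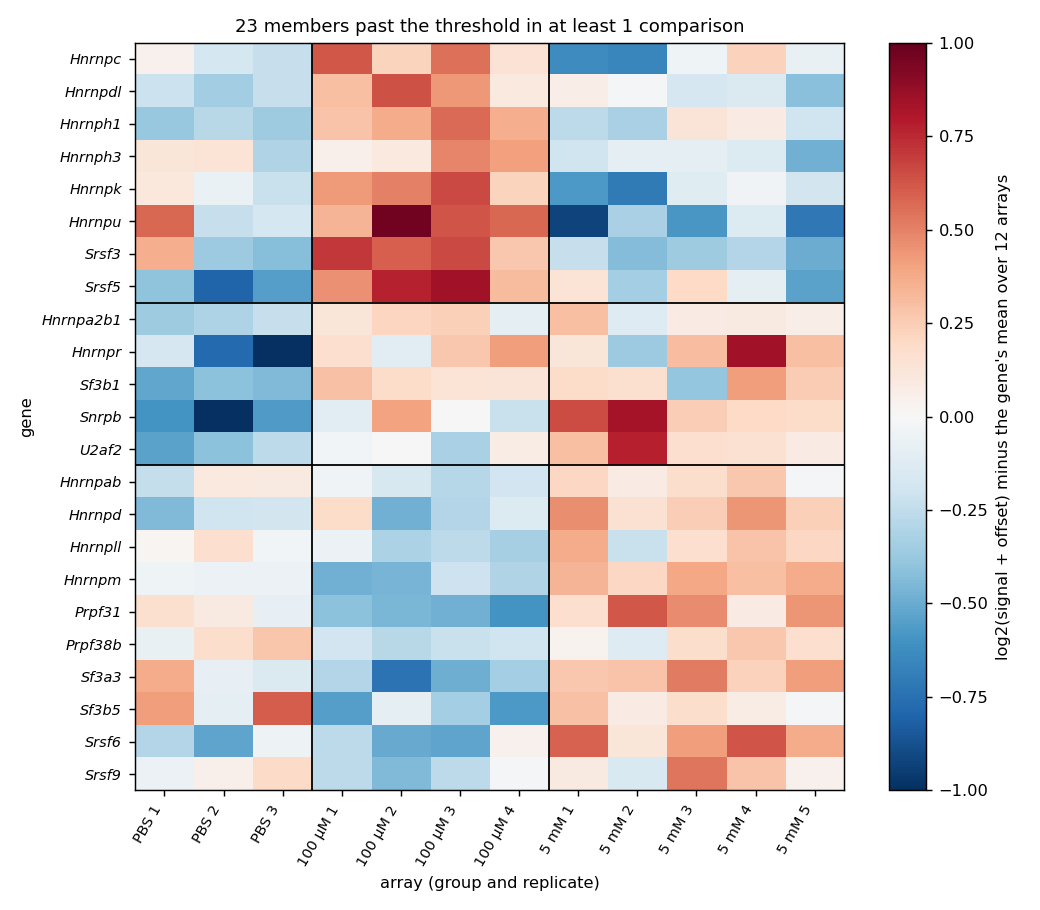
Log2(signal + offset) minus the mean of the gene over the 12 arrays (colour, red above and blue below the mean, with the scale ending at 1 either way) for the 23 genes past the threshold in at least 1 comparison (rows) on every array (columns). The upper block holds the 8 genes that were lower at the high than at the low dose and the lower block the 10 that were higher; the 5 between them differed from controls only.

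For 14 of the genes 2 or more probe sets were tested, and they need not read the same part of the transcript. Some of them (types s, f and r) may also read related transcripts, so their gene is less certain. Among these are both sets of Srsf2, the brighter sets of Srsf3 and Hnrnpdl, and the dimmer set of Srsf4. The signs of all probe sets of a gene were the same for 7 of 14 genes at the high dose against controls, 11 at the low dose and 9 between the doses. A call was made only in a dimmer probe set for 1, 2 and 4 of the 14. Over all probe sets tested, 11.7%, 24.0% and 27.4% passed in these comparisons, which is a different measure. How often the probe sets of other genes differed in sign or call is not given here. The counts are therefore not read as particular to splicing genes.

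Srsf2, with both probe sets of type s, is one of the genes with a call only in the dimmer set. Its dimmer probe set read 1651, 1654 and 1642 in controls, 3039.9, 3039, 3192 and 3254 at the low dose and 1831, 1349, 1902, 2704 and 1865 at the high dose. The 4 low-dose arrays were above all others, in contrast to the overlap of the brighter probe set. It was 0.92 ± 0.17 higher at the low dose than in controls (adjusted p = 0.00117) and fell by 0.73 ± 0.15 to the high dose (adjusted p = 0.0015).

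Of the probe sets of Srsf1, the SR protein first known as ASF/SF2, the one just below the brightest read 329.7, 399 and 339 in controls, 431, 559, 669 and 486 at the low dose and 272, 199, 371, 369.6 and 251 at the high dose. It fell by 0.87 ± 0.18 from the low to the high dose (adjusted p = 0.00174), with no overlap, whereas the brighter one was at 0.38 and did not pass. The second probe set of Hnrnpab was at -0.73 ± 0.22 between the doses (adjusted p = 0.0192), opposite to the 0.31 of the brighter one, and that of Srsf4 at -0.61 ± 0.17 at the high dose against controls (adjusted p = 0.0274), where the brighter one was at 0.03.

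In Hnrnpdl, Srsf3 and Hnrnpa2b1 the dimmer probe set changed in the same direction as the brighter one at the low dose, and by more. The second probe set of Hnrnpdl averaged 310.3 ± 47.2 (SD, n = 3) in controls, 858 ± 96.5 (SD, n = 4) at the low dose and 316 ± 42.6 (SD, n = 5) at the high dose, a 2.72-fold rise at the low dose (1.44 ± 0.15, adjusted p = 1.5e-05) and a fall by 1.41 ± 0.13 to the high dose (adjusted p = 1.4e-06). The second of Srsf3 was 0.95 ± 0.19 higher at the low dose and -1.13 ± 0.17 between the doses (adjusted p 0.00234 and 0.000119), and the second of Hnrnpa2b1 1.05 ± 0.18 and -0.67 ± 0.16 (adjusted p 0.000928 and 0.00561). In Sf3b1 and Hnrnpu the dimmer set had the smaller value. For Sf3b1 it was at 0.50 ± 0.13 at the low dose (adjusted p = 0.0108) and at 0.33 at the high dose, which did not pass, beside 0.64 and 0.58 in the brighter set. For Hnrnpu it was at -0.18 between the doses and did not pass, beside -1.16. Whether 2 probe sets of a gene differed was tested on their log2 ratio within each array, for 15 pairs and 3 comparisons. None of the 45 exact two-sided permutation tests had an adjusted p under 0.05. The smallest exact p these group sizes allow, 0.0179 for the high dose and 0.0286 for the low dose against controls and 0.00794 between the doses, was reached in each, and the smallest adjusted p was 0.115. At these limits no single pair could pass after adjustment over 45 tests, however far apart its arrays lay. The tests therefore cannot decide whether the probe sets of a gene differed.

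**Figure D4:**
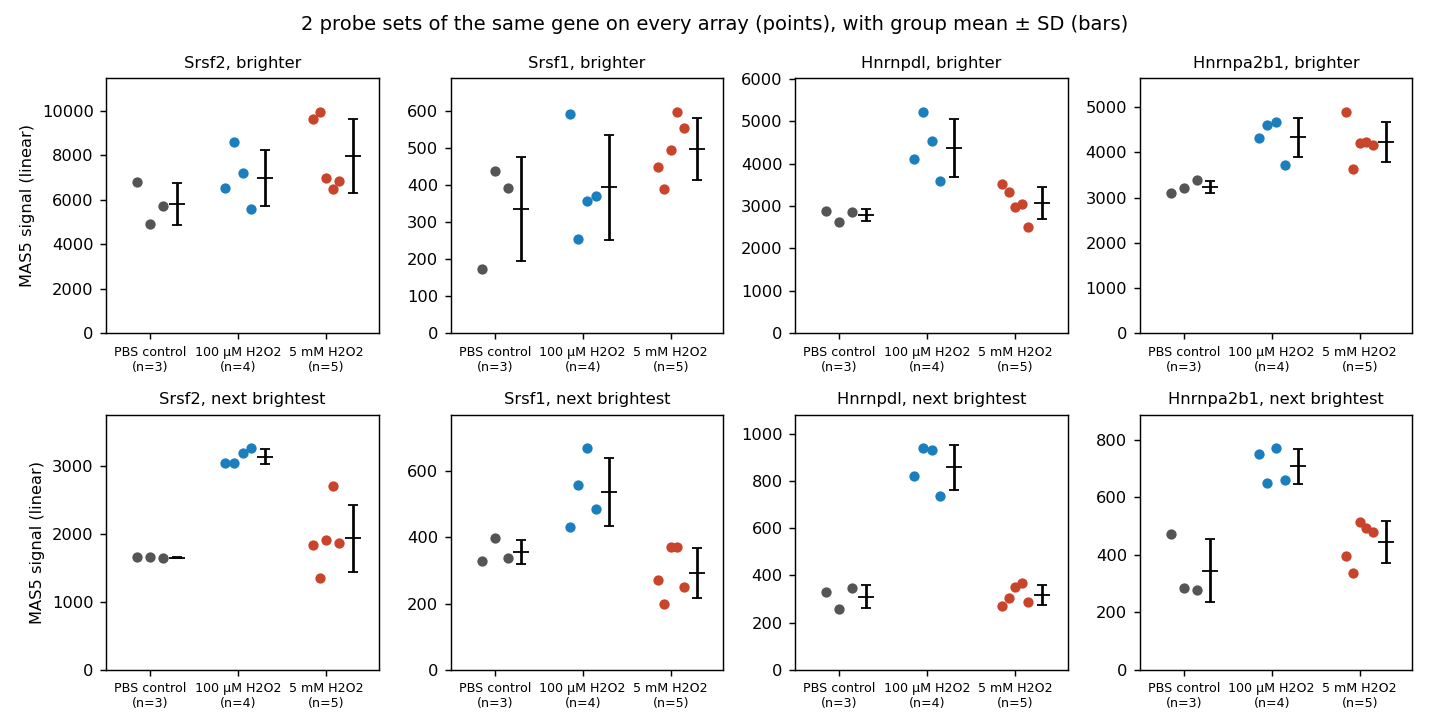
MAS5 signal (y axis, linear, from 0) of the brightest (upper row) and next brightest (lower row) tested probe set of Srsf2, Srsf1, Hnrnpdl and Hnrnpa2b1 on each array (points), with the mean and SD per group (bars). In the lower row the 4 low-dose arrays lie above every other array in all 4 genes.

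Other splicing genes were read from 4 lists of 120 genes, of which 83 were tested. At the high dose against controls 4 were higher and 4 lower, at the low dose 11 higher and 18 lower, and between the doses 22 higher and 13 lower, where 12.2%, 24.6% and 29.0% of all genes passed in either direction. Of 19 Sm-like (Lsm) and snRNP assembly genes, 1 was higher and 6 were lower at the low dose, and 8 were higher and none lower at the high than at the low dose. Of all genes, 11.9% were higher and 12.7% lower at the low dose, and 13.8% and 15.2% between the doses. At the high dose against controls none of the 19 was higher and 1 was lower, Lsm2 (-0.59 ± 0.15, adjusted p = 0.0165). Clns1a, which brings Sm proteins to the methylosome, was 1.18 ± 0.18 higher at the high than at the low dose (adjusted p = 0.000185), Lsm4 was 0.92 ± 0.12 higher (adjusted p = 4.1e-05) and Usp39, a tri-snRNP protein, 0.74 ± 0.15 (adjusted p = 0.00187).

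Of 14 SR-related proteins and SR kinases, 3 were higher and 4 lower at the low dose (24.6% of all genes passed), and 4 were higher and 5 lower between the doses (29.0% of all genes). At the high dose against controls 1 passed, Clk3, which fell by 0.53 ± 0.15 (adjusted p = 0.0293). At the low dose against controls Tra2b and Rbm39, which have SR-like domains, rose by 0.72 ± 0.14 and 0.89 ± 0.16 (adjusted p 0.00152 and 0.00107), and Pnn by 0.56 ± 0.18 (adjusted p = 0.0315). Of the kinases that phosphorylate SR proteins, Clk2 and Clk3 fell by 0.89 ± 0.18 and 0.92 ± 0.15 at the low dose (adjusted p 0.00242 and 0.00069) and Srpk2 by 0.82 ± 0.28 (adjusted p = 0.0425). Between the doses Srpk1 and Srpk2 were higher at the high dose, by 0.58 ± 0.14 and 1.05 ± 0.24 (adjusted p 0.00632 and 0.00443), and Clk1 was lower (-0.64 ± 0.14, adjusted p = 0.00313).

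Of 23 spliceosomal helicases and Prp19-complex proteins, 2 were higher and 4 lower at the low dose, 6 were higher and 4 lower between the doses, and 1 was higher and 2 were lower at the high dose against controls, beside 24.6%, 29.0% and 12.2% of all genes. Phf5a, an SF3B subunit, fell by 0.77 ± 0.16 at the low dose (adjusted p = 0.00277) and was 0.64 ± 0.14 higher at the high than at the low dose (adjusted p = 0.00274), as Sf3b5 was. The helicase Ddx5 did the reverse, at 0.62 ± 0.14 and -0.73 ± 0.12 (adjusted p 0.0047 and 0.000355). Of 27 other regulators of splicing and export, 3 were higher and none lower at the high dose against controls, 5 were higher and 4 lower at the low dose, and 4 were higher and 4 lower between the doses, beside the same shares of all genes. Ybx1, a cold-shock-domain protein, was 1.71 ± 0.20 higher at the high dose and 1.29 ± 0.21 at the low dose (adjusted p 3e-05 and 0.000448). Its signals averaged 5349 ± 592 (SD, n = 3) in controls, 13311 ± 2922 (SD, n = 4) at the low dose and 17818 ± 4349 (SD, n = 5) at the high dose, at the bright end of the scale. Ptbp3, a pyrimidine-tract-binding protein, and Pspc1, of the paraspeckles, fell by 1.19 ± 0.22 and 0.96 ± 0.21 from the low to the high dose (adjusted p 0.00092 and 0.00312).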

How the data were processed

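Values for 12 arrays came from the deposited series table, which holds 1 intensity per probe set and array on a linear scale, MAS5 signals per the submitters' processing notes. The sources used here give neither the MAS5 version nor the scaling target. Groups and replicate numbers came from the sample titles.

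To each intensity 10.1 units (the 20th percentile of the whole table) were added before log2, so changes of dim genes are understated. Of 12488 probe sets, 66 controls were left out, and the 8695 with a mean log2 value above the 30th percentile of the rest were tested. The tests were two-sided, with limma 3.58.1 in R 4.3.3: 1 mean per group over all 12 arrays, eBayes with a variance trend, and Benjamini-Hochberg adjustment over the 8695 at a threshold of 0.05. Symbols came from the platform annotation, updated by Entrez number through RefSeq of assembly GRCm38.p6, and all 71 probe sets of the 52 genes matched. Of these 71, 67 were tested; the others, of Hnrnpdl, Snrpb, Srsf1 and Prpf39, were too dim. The fitting code was tested on simulated data.

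The 52 genes, the 4 other splicing lists and the marker lists were chosen with earlier results of these data known. Values on every array are given for the 12 genes with the largest changes past the threshold and for the gene whose probe set had the highest mean signal in each role; other splicing genes are named only where they passed. Normalization, offset, filter, variance model, array weights, the groups fitted, the replicate block, the probe set per gene and each array in turn were varied, and 2 alternatives were added after the data were seen: genes of a mean signal up to 2000 only, and both high-dose replicates 1 and 2 left out. Deviations of same-numbered arrays from their group means correlated at -0.178 to 0.148 between groups (10 pairs, 2 over 0.1). Arrays of different numbers were not compared in this way, so these values cannot exclude pairing. Replicate numbers were not taken as pairs in the main fit.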

Additional observations from a re-analysis of the deposited data

Results flagged for a closer look

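One array stood apart in a group. For U2af2, high-dose replicate 2 read 6791.5 signal units and the other 4 high-dose arrays 4210.69 to 4880.12, and its gap to the nearest of them was 0.741 of the group's range. Of 28 groups of low-dose or high-dose arrays examined in this way, 1 had such an array, and chance gives about 1 in 20. Control arrays were not examined in this way. The highest signals on the whole array were also read in high-dose replicates 1 and 2; their part in this value was not tested.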

How the results depend on the processing

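Of 38 called changes of single genes, 15 kept their direction and call under the 23 alternatives recomputed for single genes (all but the probe set of median level and the limit on signal, which were run for counts and medians), 17 lost the call without at least 1 array, 20 lost it under at least 1 alternative that kept all arrays or left out a pair, and none reversed under those 23. Of 118 changes not called, 28 were called in the same direction under at least 1 alternative. Besides these, Srsf2 at the low dose and Srsf1 between the doses were called only in the opposite direction. The cause of these shifts was not tested. Against controls at the high dose, the 7 genes higher became 13 with array quality weights and 3 to 8 with 1 array left out; the 0 lower became 3 with quantile normalization, 1 with array weights, 1 with the probe set of median level for each gene, and 0 to 1 with 1 array left out. The median of 0.16 became 0.066 with the probe set of median level (0.09 to 0.20 with 1 array left out). At the low dose, the 9 higher became 3 at a common median, 14 with array weights, 5 among the 41 genes of mean signal up to 2000, and 5 to 12 with 1 array left out; the 4 lower became 9 at a common median and 2 to 5 with 1 array left out; the median of 0.13 became -0.058 at a common median (0.12 to 0.18). Between the doses, the 10 higher were 7 to 12 with 1 array left out, the 8 lower were 4 at a common median, 12 with the probe set of median level and 6 to 8 with 1 array left out, and the median of 0.07 became 0.18 at a common median and -0.046 with the probe set of median level (0.03 to 0.10). Scaling to a common median moved the share of calls over all genes that were higher from 43.9% to 27.4% at the high dose, from 48.2% to 23.2% at the low dose and from 47.7% to 62.9% between the doses. With array weights the calls over all genes went from 344 to 561 higher and from 439 to 704 lower at the high dose. At the low dose they went from 761 to 908 higher and from 817 to 1015 lower. Srsf2 reversed with quantile normalization, from 0.44 to -0.64 at the high dose and from 0.26 to -0.59 at the low dose. With the same normalization Snrpg and Prpf8 gained calls as lower. Srsf1 went from 0.38 to -0.68 between the doses without high-dose replicates 1 and 2, where its other probe set became the brightest and stood for it.

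Whether the replicate numbers pair the arrays is not settled, since only same-numbered arrays were compared. With the replicate block 6 of the 52 genes were higher and 0 lower at the high dose (median 0.15), 8 higher and 3 lower at the low dose (median 0.14), and 7 higher and 7 lower between the doses (median 0.07). Arrays have no read depth; dim probe sets, near the offset of 10.1 units, limit what can be read.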
